A study of Mus musculus with 12 samples.

Results

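The regions described here are 622 high-scoring peaks of RNA-DNA hybrid signal that lie in genes of mouse liver. They were taken from the 14908 peaks of the list labelled liver by 4 conditions: a score of 60 or more, a strand of + or -, a position on chromosomes 1 to 19, and at least 1 bp of overlap with a RefSeq gene of GRCm38. Of the 883 liver peaks with a score of 60 or more, 188 had no strand, 19 with a strand lay off chromosomes 1 to 19 and 54 more overlapped no RefSeq gene. The members were 5.47% of the 11371 stranded autosomal genic liver peaks, and the other 10749 of these, with scores under 60, served as the comparison. The members were thus chosen by their score and strand, and both are given as description. The score is the authors' own whole number per peak, its scale is not given in the sources used here, and it was used only to rank peaks within a list.

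The study mapped R-loops by immunoprecipitation of genomic DNA with the S9.6 antibody in 2 sources, the mouse hepatoma cell line HEPA1-6 and liver of C57/Bl6 mice. Both sources were labelled wild type (WT), untreated and of the cell type hepatocyte, and neither the age of the mice nor pooling of animals is given in the labels. Each source had 3 groups of 2 libraries: immunoprecipitate, immunoprecipitate digested with RNase H1, and input, 12 libraries in all. The files hold 1 peak list per source, in which a merged immunoprecipitate is named against an input, so a peak has no replicate, the depth behind it is unknown, and no p-value is given. The RNase H1 libraries were not analysed here. All percentages below carry 95% Wilson intervals in brackets, and medians carry 95% intervals from order statistics. Both cover counting error over peaks or genes only, and neighbouring peaks are not independent.

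An R-loop forms when an RNA, usually one still being transcribed, pairs with its template DNA strand and leaves the other strand single. The S9.6 antibody binds the RNA-DNA hybrid, and RNase H1 removes the RNA of a hybrid, which makes the digested sample the specificity control of such a map. R-loops are known from CpG-rich gene starts, gene ends and repeated genes with heavy transcription, such as ribosomal RNA genes.

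The label was checked against marker genes before the members were described. Of 43 autosomal hepatocyte genes, 0 held a member, which allows a share of up to 8.20%, against 3.29% of all 20665 autosomal protein-coding genes. At any score, 10 of the 43 held a stranded genic liver peak and 12 held a HEPA1-6 peak. Over those 10 alone, the interval of the share of 0 reached 27.8%. It thus included the 11.4% of all protein-coding genes with such a peak that held a member. The albumin gene Alb had a highest liver score of 54, the retinol carrier Rbp4 49, the heme carrier Hpx 47 and the tyrosine-degrading enzyme gene Fah 44. The transcription factor gene Hnf4a had 39. Members held 1 of 22 Kupffer cell and leukocyte genes (Cd68, in the same peak as Eif4a1), 1 of 14 stellate cell genes (Dcn, decorin), 0 of 10 cholangiocyte genes and 0 of 15 endothelial genes. A peak over a gene is not a measure of its RNA level, so these counts neither identify nor refute a cell type. The part of other cell types in the members was not tested.

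Among the members at gene starts were those of Eif4a2, an RNA helicase of translation initiation (score 344), Ran, the GTPase of nuclear transport (249), the linker histone genes H1f4 (234) and H1f3 (194), the ribosomal protein gene Rpl13 (214), the stress transcription factor gene Atf4 (198) and Hnrnpa0, which encodes an RNA-binding protein (196). Their promoters are shown because the members came within 1 kb of these starts and because they carry the motifs counted over all promoters further on. Each line gives the 250 bases before the RefSeq start, 5′ to 3′ on the strand of the gene, from the RefSeq table of GRCm38.p6. Capitals mark 3 motifs on either strand. They are TATAAA, the letters of a TATA box, then CCAAT, those of a CCAAT box, and the GC box letters GGGCGG. Because the promoters were picked in part for these motifs, they do not show how often the motifs occur. Cox7c (257), which also had a member at its start, held none of the 3 motifs and is not shown.
Eif4a2: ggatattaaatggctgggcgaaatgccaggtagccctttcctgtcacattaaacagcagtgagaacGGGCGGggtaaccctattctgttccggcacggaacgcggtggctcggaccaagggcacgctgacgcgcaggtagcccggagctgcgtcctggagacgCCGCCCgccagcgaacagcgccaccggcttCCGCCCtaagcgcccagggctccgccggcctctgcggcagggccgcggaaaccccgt
Ran: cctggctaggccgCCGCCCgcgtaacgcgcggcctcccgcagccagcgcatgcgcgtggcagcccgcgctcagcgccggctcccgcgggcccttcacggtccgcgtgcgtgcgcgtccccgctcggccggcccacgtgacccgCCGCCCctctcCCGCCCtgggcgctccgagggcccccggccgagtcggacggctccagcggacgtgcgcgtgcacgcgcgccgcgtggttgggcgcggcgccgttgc
H1f4: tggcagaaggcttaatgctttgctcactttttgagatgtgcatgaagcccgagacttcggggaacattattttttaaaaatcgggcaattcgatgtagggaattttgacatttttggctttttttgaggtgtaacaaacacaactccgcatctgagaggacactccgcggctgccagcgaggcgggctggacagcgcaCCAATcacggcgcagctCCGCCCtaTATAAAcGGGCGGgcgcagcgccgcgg
H1f3: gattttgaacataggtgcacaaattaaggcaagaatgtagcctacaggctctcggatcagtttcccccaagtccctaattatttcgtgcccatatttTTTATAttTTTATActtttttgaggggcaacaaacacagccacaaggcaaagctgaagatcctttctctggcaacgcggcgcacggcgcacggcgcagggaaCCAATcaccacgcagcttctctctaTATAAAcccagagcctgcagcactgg
Rpl13: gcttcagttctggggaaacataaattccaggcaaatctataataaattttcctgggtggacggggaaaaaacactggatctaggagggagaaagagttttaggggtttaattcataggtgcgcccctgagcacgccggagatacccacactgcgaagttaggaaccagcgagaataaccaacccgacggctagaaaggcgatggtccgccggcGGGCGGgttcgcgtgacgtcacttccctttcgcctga
Atf4: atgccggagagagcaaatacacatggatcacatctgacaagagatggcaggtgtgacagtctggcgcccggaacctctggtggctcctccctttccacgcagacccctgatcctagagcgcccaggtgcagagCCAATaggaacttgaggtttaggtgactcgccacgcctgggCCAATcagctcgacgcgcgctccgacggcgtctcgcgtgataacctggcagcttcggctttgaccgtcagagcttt
Hnrnpa0: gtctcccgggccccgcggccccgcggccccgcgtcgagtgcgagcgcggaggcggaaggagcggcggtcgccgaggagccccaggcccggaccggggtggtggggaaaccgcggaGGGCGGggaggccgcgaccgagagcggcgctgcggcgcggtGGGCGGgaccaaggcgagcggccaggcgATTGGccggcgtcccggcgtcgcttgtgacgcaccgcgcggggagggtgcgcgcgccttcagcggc
The promoters of Eif4a2, Ran, Rpl13, Atf4 and Hnrnpa0 carried no TATAAA. The positions were chr16:23107218-23107467 (+) for Eif4a2, chr5:129019906-129020155 (+) for Ran, chr13:23622559-23622808 (-) for H1f4, chr13:23554782-23555031 (+) for H1f3, chr8:123102100-123102349 (+) for Rpl13, chr15:80254934-80255183 (+) for Atf4 and chr13:58128557-58128806 (-) for Hnrnpa0. Both histone promoters held a CCAAT and, closer to the start, a TATAAA. A match is a run of letters and not a known binding site.

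The members also held 23 of the 1136 autosomal microRNA genes, 2.02%. The mature forms of a few are shown because they are well known and because 3 of them lie in 1 peak. Bases 2 to 8, the seed with which a microRNA pairs with its targets, are in capitals.
miR-93-5p: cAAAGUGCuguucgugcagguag
miR-106b-5p: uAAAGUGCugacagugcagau
miR-25-3p: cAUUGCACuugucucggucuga
let-7i-5p: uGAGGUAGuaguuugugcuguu
miR-22-3p: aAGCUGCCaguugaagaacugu
The forms miR-93-5p and miR-106b-5p share the seed AAAGUGC, while miR-25-3p, let-7i-5p and miR-22-3p each have a seed of their own. The genes of miR-25, miR-93 and miR-106b lie inside Mcm7, which encodes a subunit of the replicative helicase, and 1 member of 9521 bp and score 78 spanned all 4 genes at chr5:138164048-138173568. This member also overlapped Ap4m1, and its strand, +, was opposite to that of Mcm7 and the microRNA genes inside it. The member over Mirlet7i had a score of 89 and a width of 2087 bp, and no other gene lay under it. The member over Mir22 and its host transcript Mir22hg had a score of 70 and a width of 6787 bp. Of these 3 members, only that over Mirlet7i scored above the median of the set, 80.

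Scores of the members ran from 60 to 3675 with a median of 80, and the middle part of the set, between the quartiles, lay between 66 and 106. The threshold fell inside a continuous run of scores: 32 members had a score of exactly 60, among them peaks in Imp4, Uxs1 and Mcm6, and 26 genic peaks had a score of 59, among them peaks in Terf1, Nop56 and Zfp64. There were 310 members with scores from 60 to 79, 129 from 80 to 99, 137 from 100 to 199, 31 from 200 to 499 and 15 of 500 or more. The highest scores are thus held by few peaks, which are described first because they differ from the rest in width and position.

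The highest score, 3675, belonged to a peak of 5794 bp at chr17:39843015-39848808 over Rn18s-rs5, a pseudogene related to 18S ribosomal RNA, and the lncRNA gene AY036118. The overlapping HEPA1-6 peak also had the highest HEPA1-6 rank of any member, 0.0348% from the top of its list. The next member, with a score of 2397, was a peak of 486 bp at chr16:57391186-57391671 inside both Cmss1 and Filip1l, genes that overlap on opposite strands. A peak of 364 bp at chr5:146260988-146261351 inside Cdk8, the kinase of the Mediator complex, had a score of 1853. Myo3a, a myosin gene, held a peak of 2330 bp at chr2:22587821-22590150 with a score of 1675. Reads from repeated sequences such as ribosomal DNA can be placed at any of their copies, and how such reads were treated is not given in the sources used here.

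Most of the other top members were short and lay deep inside long genes. The lncRNA gene Gm36876 held a peak of 457 bp (score 1180). D5Ertd579e and Gm32584 shared a peak of 323 bp (1055), Zc3h7a held a peak of 381 bp (990) and Jarid2, which encodes a partner of Polycomb repressive complex 2, held a peak of 447 bp (988). The Jarid2 peak was centred 139.0 kb from the 5′ boundary of a gene of 190.9 kb. Gucy1a2, a guanylate cyclase subunit gene of 373.4 kb, held a peak of 425 bp (933) centred 127.4 kb from its 5′ boundary. Camk1d, a calcium-dependent kinase gene of 421.4 kb, held a peak of 310 bp (922) centred 335.6 kb from its 5′ boundary. 4930563M21Rik (753, 383 bp), Cpeb4, which encodes a protein that controls mRNA polyadenylation (683, 253 bp), Gphn, the gephyrin gene of 467.4 kb (500, 264 bp), and Arhgap21 (364, 333 bp) completed the short ones.

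In all, 12 of the 20 highest-scoring members were under 500 bp, and 13 of the 20 lay inside a gene more than 1 kb from both of its boundaries. Of members 21 to 100 by score, 12 were under 500 bp, and of the remaining 522 members 70 were. Of the 15 members with a score of 500 or more, 11 were under 500 bp, their median width was 425 bp, and 0 of the 14 with a gene of known strand reached within 1 kb of a 5′ boundary.

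The wider top members were of other kinds. Wls, which encodes the carrier that exports Wnt proteins, held a peak of 1400 bp at its 3′ end (score 1070). The pseudogenes Gm10925 and Gm10222 on chromosome 1 shared a peak of 4393 bp (575). Tmem267 held a peak of 7655 bp (487), Hnrnpf a peak of 3816 bp (483) and Rdm1 a peak of 3948 bp (454). Among members just below the top 20, singled out after their values were seen, were Ywhaz, a 14-3-3 protein gene (331), the histone H3.3 gene H3f3b (303) and the β-actin gene Actb (281), whose peak of 9369 bp covered 79.9% of the gene.

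**Figure D1:**
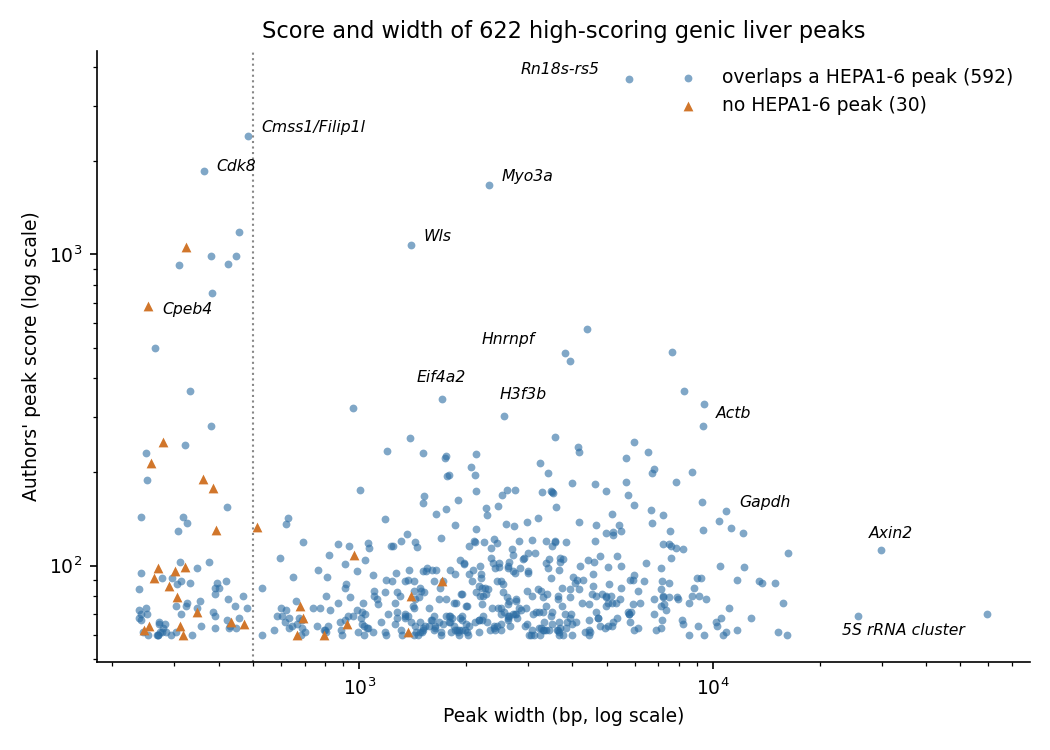
Each point is 1 of the 622 members, by peak width in bp (x, log scale) and the authors' score (y, log scale); triangles are the 30 members that overlap no HEPA1-6 peak, and the dotted line marks 500 bp. Above a score of 500 most points lie left of the line, and the widest members, the 5S rRNA cluster and Axin2, have scores of 70 and 112.

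Members were wide. Their median width was 2180.5 bp (1955 to 2395, n = 622), with quartiles of 1019 and 3990 bp, against 948 bp (933 to 968, n = 10749) for lower-scoring genic peaks. Peaks over 5 kb made up 18.5% of the members (15.6 to 21.7, 115 of 622), against 4.47% of the lower-scoring peaks and 5.24% of all. Peaks under 500 bp made up 15.1% (12.5 to 18.1, 94 of 622), against 24.9% of the lower-scoring peaks and 24.4% of all. Width may enter the score, so this is no independent property. Score and width had a Spearman correlation of 0.352 over all 11371 stranded autosomal genic liver peaks and of 0.328 over the 10749 under the threshold. Over the 622 members alone, whose range of scores the rule had cut, it was 0.110. These are descriptions over peaks of 1 list.

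The widest member spanned 59575 bp at chr8:123565265-123624839 and covered the cluster of 5S ribosomal RNA genes, which encode the smallest rRNA of the large ribosomal subunit. Because of this single peak, members held 32 of the 61 autosomal rRNA genes, 52.5%. Its score was 70, and 14 separate HEPA1-6 peaks covered 17.3% of it. Axin2, a target and inhibitor of Wnt signalling, held the second widest member, 29905 bp inside a gene of 33.0 kb (score 112). Next came a peak of 25664 bp over Bspry, Hdhd3 and Alad, whose last gene encodes a heme synthesis enzyme (69), one of 16294 bp at Arid2, a chromatin remodeller subunit gene (110), and one of 16152 bp at Scaf11 (60). At the other end, peaks of 239 bp lay in Rpl19-ps11 (84), Rnf43, a ubiquitin ligase gene of the Wnt pathway (72), and Nudt4 with Mir3058 (68), and peaks of 241 bp in Pphln1 (143) and Oser1 (95).

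In all the members overlapped 920 genes. Protein-coding genes were 680 of these, or 3.29% of all, and lncRNA genes were 100, or 0.806% of the 12408 autosomal ones. A protein-coding gene lay under 93.7% of the members (91.5 to 95.4, 583 of 622), close to the 95.1% of all stranded autosomal genic liver peaks. An lncRNA gene lay under 15.8% (13.1 to 18.8, 98 of 622), against 9.76% of the lower-scoring peaks (9.21 to 10.3) and 10.1% of all. The intervals did not overlap, but wide peaks reach more genes: 65.9% of members lay over 1 gene only, against 84.7% of lower-scoring peaks. Among the smaller classes, members held 14 of 8884 pseudogenes (0.158%), 6 of 931 snRNA genes (0.644%) and 0 of 391 tRNA genes. Of the 680 protein-coding and 100 lncRNA genes held, both were 11.4% of those of their class with any stranded genic liver peak (5975 and 878 genes).

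Small nucleolar RNA genes were held more often than the genes of these classes. They encode guides for the chemical modification of ribosomal RNA and mostly lie in introns of other genes. Members held 60 of the 1286 autosomal snoRNA genes, 4.67%, and these were 49.6% of the 121 that lay under any stranded genic liver peak. A snoRNA gene lay under 4.50% of members (3.13 to 6.43, 28 of 622), under 0.354% of lower-scoring peaks (0.258 to 0.485, 38 of 10749) and under 0.58% of all. No member under 500 bp held a snoRNA gene. Other small classes also lay under a higher share of members. A microRNA gene lay under 3.05% of members, 0.651% of lower-scoring peaks and 0.783% of all. For snRNA genes the shares were 0.965%, 0.130% and 0.176%. Wide peaks reach more genes, and these shares were not compared within width classes. The member over Gas5, a host transcript on chromosome 1, held 8 snoRNA genes (score 74, 7113 bp). The member over Snhg1 held 5 (80, 3647 bp), that over Rpl7a 4 (62, 3653 bp), and 6 members held 3 each, among them those over Eif4a1 (186), Rpl17 (174), Snhg16 (119) and Hspa8 (88). Eif4a2 with Snord2 had the highest score of the 28.

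The host genes were counted as well. Many of their peaks, such as those at Eif4a2, Eif4a1, Ncl and Gas5, were the members over snoRNA genes just described. Their counts are therefore not a separate result. Members held 13 of 27 genes of the snoRNA host list, 48.1% (30.7 to 66.0), and these were 59.1% of the hosts with any stranded genic liver peak. Besides Eif4a2 (344), the highest were Zfas1 (225), Eif4a1 (186), Ncl, the nucleolin gene, with 2 members (146 and 106), and Epb41l4aos (145). All 14 peaks of the list overlapped a HEPA1-6 peak, with ranks from 0.146% to 2.19%.

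Ribosomal protein genes were the best represented of the larger lists. Members held 36 of 83, or 43.4% (33.2 to 54.1), against 3.29% of all protein-coding genes. Nearly the whole list, 76 of 83, held some stranded genic liver peak, and members were at 47.4% of these (36.5 to 58.4), against 11.4% for protein-coding genes with any such peak. Scores ran from 60 to 231 with a median of 92. Rpl36 (231), Rpl21 (221), Rpl13 (214), Rpl38 (200), Rps16 (175) and Rpl17 (174) were the highest. These genes are short, and the median width of their 36 peaks was 4087 bp, so 13 of the 36 genes lay entirely inside the peak. The peak over Rpl38 was 8693 bp wide, and that over Rps23, with a score of 172, was 3281 bp. Of the 27 with a known strand, the peak reached within 1 kb of the 5′ boundary in 19, of the 3′ boundary in 21 and of both in 15. The 2 that reached neither were Rps3 (98) and Rps15a (64). All 36 overlapped a HEPA1-6 peak, with ranks between 0.185% and 4.93% from the top of that list and a median of 0.923%.

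Genes of translation factors, which bring ribosome and mRNA together or move the ribosome along it, were held less widely. Members lay over 14 of 67, or 20.9% (12.9 to 32.1). Eif4a2 (344) and Eif4a1 (186), paralogous helicases of the cap-binding complex, led the list, followed by Eif4b, which stimulates them (138), the elongation factor gene Eef1a1 (134), Eif6, which keeps ribosomal subunits apart (132), and Eef2, the translocation factor (117). Eef2 lay entirely inside its peak of 7500 bp, while the peak of 1712 bp at Eif4a2 covered 25.7% of the gene at its 5′ end. Eif4enif1 held the smallest of the list, 253 bp inside the gene, and the HEPA1-6 peak there ranked 23.1%.

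Genes of splicing and RNA-binding proteins held members in 25 of 78 cases, 32.1% (22.7 to 43.0). Most of these encode hnRNP proteins, which package nascent RNA, or SR proteins, which promote splicing. Hnrnpf led with 483, then Hnrnpa0 (196), the splicing factor gene Prpf38b (195), Hnrnpk (186) and Srsf6 (145). In contrast to the ribosomal protein genes, the peaks lay at the 5′ boundary in 16 of 24 gene and peak pairs of known strand, at the 3′ boundary in 6 and at both in 3. Only Srsf6 lay entirely inside its peak. Hnrnpu held 1 peak at its 5′ end (121) and 1 inside (68). Hnrnpc was the exception in rank: its peak of 1019 bp scored 71, and the HEPA1-6 peak over it ranked 39.4%.

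Immediate early and stress response genes, which are switched on fast and briefly by signals, held members in 13 of 43 cases, 30.2% (18.6 to 45.1). Atf4, the transcription factor of the integrated stress response, had the highest score (198), and its peak of 6697 bp covered the whole gene. Trib1, a pseudokinase gene linked to liver lipid metabolism, followed (139, 10356 bp, 99.9% of the gene), then Ier5 (114), Ier2 (110), Ddit4, an inhibitor of mTOR signalling (108), Mcl1, a survival factor of the Bcl2 family (107), and Jund, an AP-1 subunit (106). The peak at Ier2 covered 97.8% of the gene. Fos, Jun, Egr1 and Myc, the best known of the list, held no member.

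Chaperone genes held members in 8 of 32 cases, 25% (13.3 to 42.1). Hsp90ab1 (127), the lectin chaperone gene Canx (122), Hspa8 (88), Hspa9 (82), Hspd1 (81) and the nucleolar protein gene Npm1 (78) were the highest. The whole of Hsp90ab1 and of Hspa8 lay inside peaks of 12171 and 7506 bp. Genes of the cytoskeleton held members in 9 of 34 cases, 26.5% (14.6 to 43.1), with Actb (281), the myosin light chain genes Myl12a (169) and Myl6 (129), Actg1 (102), Tpm4 (90) and Cfl1 (79) the highest. In 5 of the 9 the whole gene lay inside the peak, and in all 8 of known strand the peak reached the 5′ boundary.

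Histone genes were held in 7 of 81 cases, 8.64% (4.25 to 16.8), against 3.29% of all protein-coding genes. Of the 34 histone genes with any stranded genic liver peak the share was 20.6% (10.3 to 36.8), an interval that included the 11.4% of all protein-coding genes with such a peak. All 7 were linker histones or variants: H1f4 (234), H1f3 (194), H1f2 (80) and H1f5 (64) encode linker histones, and H3f3b (303), H2az1 (174) and H2aj (173) encode replacement or variant core histones. The pattern was noticed after the values were seen and has no test. The peaks of H1f4 (1195 bp) and H1f3 (1774 bp) covered the whole gene.

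Among 24 autosomal genes of the list of abundant noncoding RNAs, members held 5, 20.8% (9.24 to 40.5). Neat1, the scaffold of nuclear paraspeckles, had the highest score (205, 6809 bp, 24.7% of the gene). Gt(ROSA)26Sor, a broadly active locus used for transgenes, followed (184), then Kcnq1ot1, an imprinted antisense transcript (96), Malat1 (91), which lay entirely inside its peak of 9211 bp, and Mir22hg (70). The peak at Kcnq1ot1 covered 1.85% of the gene and also overlapped Kcnq1. Its strand, +, was opposite to that of Kcnq1ot1.

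For the glycolysis, cell cycle and developmental regulator lists the interval included the 3.29% of all protein-coding genes. Glycolysis genes held 1 of 19, 5.26% (0.935 to 24.6), which was Gapdh, with a peak of 10900 bp and a score of 150. Cell cycle genes held 3 of 36, 8.33% (2.87 to 21.8), which were Mcm7 (78), the cyclin gene Ccne2 (63) and Mcm6 (60). Developmental regulators such as Hox, Sox and Wnt genes held 1 of 142, 0.704% (0.124 to 3.88), a peak inside Wnt5b with a score of 76. Over the 16 of these genes with any stranded genic liver peak the share was 6.25% (1.11 to 28.3). That interval included the 11.4% of all protein-coding genes with such a peak.

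Lists differ in how often their genes hold any peak, so the shares were also taken over genes with any stranded genic liver peak, where the background is 11.4% of protein-coding genes. They were 33.3% for translation factors (21.01 to 48.4), 38.5% for splicing and RNA-binding proteins (27.6 to 50.6), 36.1% for immediate early and stress genes (22.5 to 52.4), 29.6% for chaperones (15.9 to 48.5), 39.1% for cytoskeleton genes (22.2 to 59.2), 12.5% for cell cycle genes (4.34 to 31.0) and 7.69% for glycolysis genes (1.37 to 33.3). The intervals of the last pair included the background, and those of the other 5 lay above it. The lists were chosen with earlier results of these data known, and some share peaks, such as those at Eif4a1 and Eif4a2. The position of an interval against the background is therefore a description and no test. Over all lncRNA genes with such a peak the background is also 11.4%, and the share for the abundant noncoding RNAs was 45.5% (21.3 to 72.0).

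**Figure D2:**
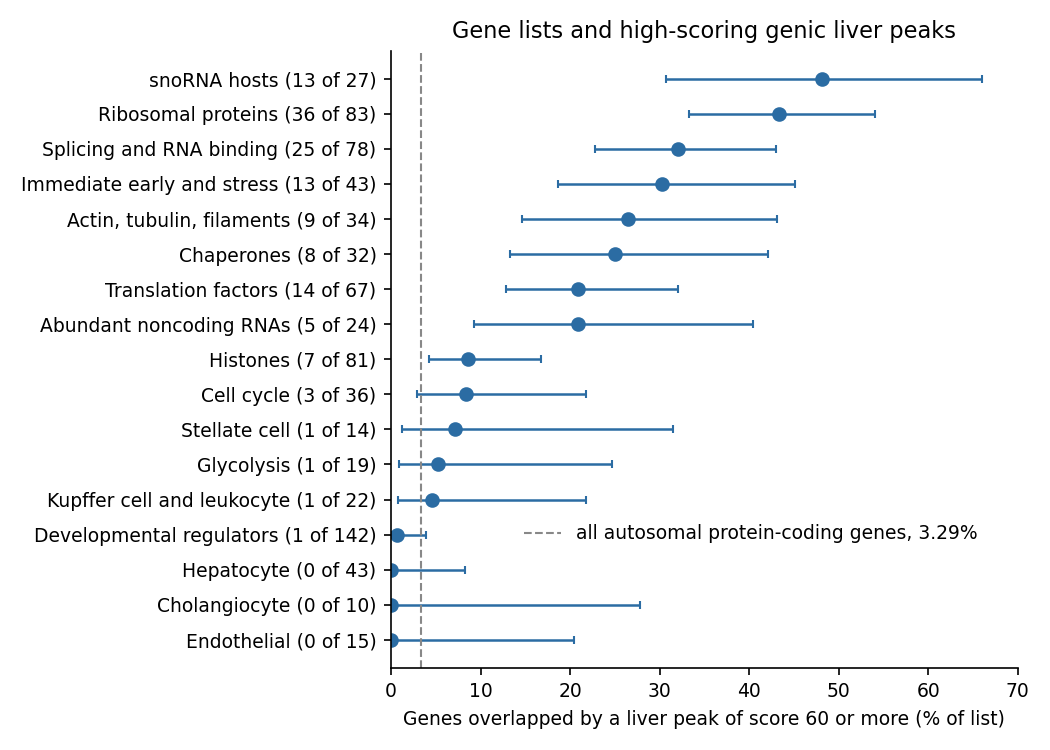
Each point is the percentage of a list's autosomal genes overlapped by a liver peak of score 60 or more, with its 95% Wilson interval (counting error over genes only), for 17 gene lists with their counts. The dashed line is the 3.29% of all autosomal protein-coding genes; ribosomal protein, snoRNA host and splicing genes lie at 32.1% or more, and the hepatocyte, cholangiocyte and endothelial lists at 0.

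Members lay at gene starts more often than lower-scoring peaks. Positions were read for the 510 members over a gene whose strand the RefSeq promoter table gives, and a peak counted as at a boundary when it came within 1 kb of it. Of these, 59.6% (55.3 to 63.8, 304 of 510) were at a 5′ boundary, against 25.4% (24.5 to 26.4, 2120 of 8338) of lower-scoring peaks and 27.4% of all. At a 3′ boundary lay 31.6% (27.7 to 35.7, 161 of 510), against 16.7% of lower-scoring peaks and 17.6% of all. Peaks at both boundaries made up 19.8% of the members (101 of 510), against 4.38% and, over all, 5.27%. Peaks at the 3′ boundary alone were as frequent among members, 11.8% (9.25 to 14.9), as among lower-scoring peaks, 12.4% (11.7 to 13.1). A whole gene lay inside the peak for 11.2% of members (57 of 510), against 1.40%, and 1.97% of all. Peaks inside a gene and away from both boundaries made up 28.6% of members (24.9 to 32.7, 146 of 510), against 62.2%, and 60.3% of all.

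Wide peaks reach boundaries more easily, so the shares were set side by side within width classes. Among peaks of 2 to 5 kb, 71.5% of 172 members were at a 5′ boundary, against 39.97% of 1576 lower-scoring peaks. Among peaks of 1 to 2 kb the shares were 60.7% of 117 and 28.2% of 2085, and among peaks of 5 to 10 kb 84.2% of 76 and 43.3% of 344. Over 10 kb, where the members numbered 20, the shares were 65.0% and 62.5%. Under 0.5 kb they were 18.3% of 82 and 16.9% of 2031. At the 3′ boundary the members had the higher share in 4 classes, with 9.76% against 7.43% under 0.5 kb, 23.1% against 14.9% at 1 to 2 kb, 32.6% against 30.0% at 2 to 5 kb and 69.7% against 59% at 5 to 10 kb. They had the lower share in the other two, with 6.98% against 9.99% at 0.5 to 1 kb and 70% against 82.5% over 10 kb. The excess at the 5′ boundary was therefore present from 0.5 to 10 kb, with 41.9% against 17.1% at 0.5 to 1 kb, and was not seen in the narrowest or the widest class.

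The choice of how to count mattered for the level. With the midpoint of the peak in place of the whole peak, 37.8% of members lay within 1 kb of a 5′ boundary, and over members with 1 gene only the share was 46.7%. Neither count was made for lower-scoring peaks, so how the difference from them changes was not tested. By score, 58.0% of the members from 60 to 79, 54.8% from 80 to 99, 77.1% from 100 to 199 and 53.8% from 200 to 499 were at a 5′ boundary.

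Places along genes over 2 kb were read for peaks over exactly 1 protein-coding or lncRNA gene, where its strand was known. Midpoints outside the gene, 31 for members and 324 for lower-scoring peaks, were left out. Those of members fell in the first of 10 equal bins from the 5′ boundary in 32.1% of cases (27.1 to 37.6, 98 of 305), against 20.5% (19.5 to 21.5, 1356 of 6618) for lower-scoring peaks. The last bin held 8.85% (6.16 to 12.6), against 12.7% (11.9 to 13.5). No other of the 10 bins held more than 10.5% of the members. The first bin held 37.1% of members of 500 bp or more (31.2 to 43.4, 88 of 237) and 14.7% of those under 500 bp (8.19 to 24.997, 10 of 68), whose midpoints were spread along the gene. Of the members under 500 bp with a gene of known strand, 74.4% (64.0 to 82.6, 61 of 82) lay inside the gene only.

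**Figure D3:**
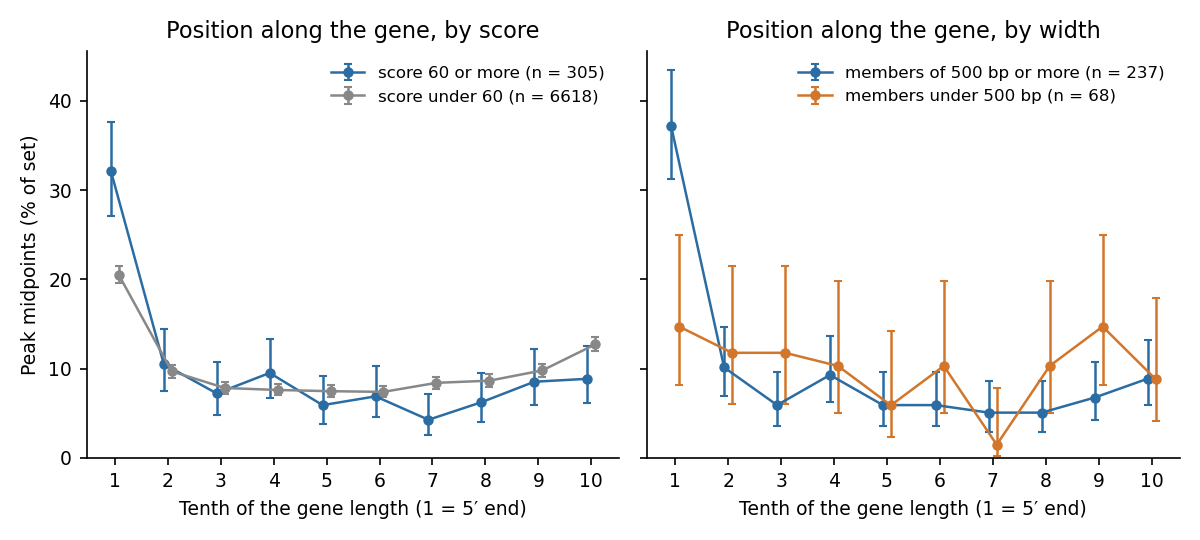
The share of peak midpoints (y, percent of the set) in each of 10 equal bins of the gene from 5′ to 3′ (x), with 95% Wilson intervals over peaks. Peaks shown overlap exactly 1 protein-coding or lncRNA gene, of more than 2 kb and known strand, and have their midpoint inside it. The left panel sets 305 members beside 6618 lower-scoring peaks and the right panel sets 237 members of 500 bp or more beside 68 under 500 bp; the first bin is highest for wide members, 37.1%.

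The genes differed in length along with this. For peaks over exactly 1 protein-coding or lncRNA gene, the median gene length was 25774.5 bp (21150 to 28984, n = 432) under members and 36857 bp (35622 to 38449, n = 9131) under lower-scoring peaks. Within the members it was 59031 bp (39800 to 91596, n = 85) for peaks under 500 bp and 20773 bp (17113 to 25938, n = 347) for wider ones. The median share of the gene covered by the peak was 4.60% for members and 2.12% for lower-scoring peaks. Narrow and wide members therefore lay in genes of different length as well as at different places in them.

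Dhx9 shows both ends of 1 gene. It encodes an RNA helicase that is known to act on RNA-DNA hybrids. One member of 5427 bp reached over its 5′ boundary (score 135, chr1:153485860-153491286), and a second of 1516 bp lay at its 3′ boundary (score 230, chr1:153455588-153457103). The HEPA1-6 peaks over them ranked 0.310% and 0.261%. In all 36 genes held 2 members, and Scaf11 held 3.

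The strand given to a peak matched that of its gene in 89.3% of members over 1 gene of known strand (85.5 to 92.3, 285 of 319), against 90.7% of lower-scoring peaks and 90.6% of all. How a strand was given to a peak is not given in the sources used here, and the member rule asked for one. Of the 34 members on the other strand, 9 were under 500 bp. The highest-scoring were those in Zc3h7a (990), the polyubiquitin gene Ubb (232), the lncRNA gene Chaserr (229), Trim41 (222), Rpl34 (171) and Nrd1 (154). Members over several genes were left out of this share. Some of them lay on the strand opposite to a listed gene, as at Gas5, Zfas1, Snhg7, Rps21, Rpl10a and Rpl7a.

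Nearly all members overlapped a HEPA1-6 peak. The share was 95.2% (93.2 to 96.6, 592 of 622), against 87.8% (87.2 to 88.4, 9439 of 10749) for lower-scoring peaks and 88.2% for all stranded autosomal genic liver peaks. It was 98.1% (96.5 to 98.97, 518 of 528) for members of 500 bp or more and 78.7% (69.4 to 85.8, 74 of 94) for those under 500 bp. Among lower-scoring peaks under 0.5 kb it was 79.1%, so the narrow members were overlapped about as often as other narrow peaks. Wide peaks were overlapped often in both sets. The share was 100% of members against 98.2% of lower-scoring peaks at 2 to 5 kb and 100% against 98.6% at 5 to 10 kb. Over 10 kb it was 100% in both. Members had the higher share at 0.5 to 1 kb, 88.1% against 82.5%, and at 1 to 2 kb, 97.8% against 92.8%. When the overlap had to cover 50% of both peaks, the share was 61.7% of members, and on the same strand it was 78.1%.

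The overlapping HEPA1-6 peaks stood high in their own list of 28717. Ranks are given as percent from the top by score. The median rank for the members was 1.48% (1.35 to 1.67, n = 592), with quartiles of 0.736% and 3.24%, against 19.4% (18.3 to 19.4, n = 9439) for lower-scoring liver peaks. It was in the top 10% for 539 members, 91.0% (88.5 to 93.1), against 27.0% of lower-scoring peaks and 30.8% of all. It was in the top 1% for 35.3%, against 0.360% of lower-scoring peaks and 2.42% of all. It was in the lower part of the list, past 50%, for 7 members, 1.18%, against 12.9% of lower-scoring peaks and 12.2% of all. By liver score, the median rank was 2.26% for members from 60 to 79, 1.40% from 80 to 99, 0.581% from 100 to 199, 0.197% from 200 to 499 and 0.0801% at 500 or more. Across the 592 pairs the scores had a Spearman correlation of 0.639, as a description over peaks that share a position and may share mappability and base composition. Lists of different length give ranks that show no change between the sources.

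**Figure D4:**
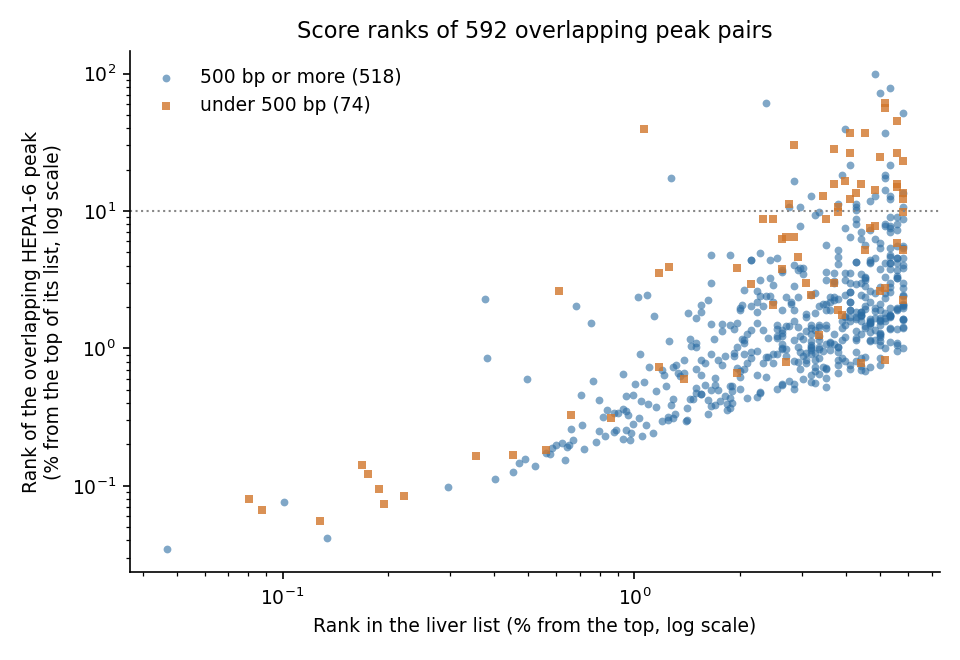
Each point is 1 of the 592 members over a HEPA1-6 peak, by its rank in the liver list (x) and the rank of the highest-scoring overlapping HEPA1-6 peak in its own list (y), both in percent from the top on log scales; squares are members under 500 bp. The dotted line marks 10%, under which 539 of the points lie.

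After Rn18s-rs5, the highest HEPA1-6 ranks belonged to the members in Wls (0.0418%), Gm36876 (0.0557%), Cdk8 (0.0662%) and Camk1d (0.0731%). Narrow members inside genes were thus among those with the highest ranks in both lists. The lowest ranks belonged to Brwd1, 2700054A10Rik, Pik3r1, Sin3a and Speer4cos. The lowest of all was 98.6%, where the HEPA1-6 peak had a score of 11. For members under 500 bp the median HEPA1-6 rank was 5.21% (2.94 to 8.72, n = 74), and for wider ones 1.39% (1.23 to 1.53, n = 518).

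The overlapping HEPA1-6 peak enclosed the member in 88.9% of pairs (86.1 to 91.1, 526 of 592), and in 88.5% over all genic liver peaks. Start and end were identical to the base in 88 pairs, 14.9% (12.2 to 17.96), against 5.92% (5.46 to 6.42) for lower-scoring peaks and 6.45% over all. The start was shared by 39.2% and the end by 40.9% of the pairs, and both shares include the 88 identical pairs. How the boundaries of the lists were set is not given in the sources used here, and the source of the shared boundaries was not tested. The strand of the 2 peaks was the same in 81.8% of pairs (78.4 to 84.7, 484 of 592), against 86.0% (85.3 to 86.7). Of the 108 pairs on opposite strands, 61 lay over 2 or more genes, as did 150 of the 484 on the same strand.

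No HEPA1-6 peak overlapped 30 members, and 20 of these were under 500 bp. The 10 with the highest scores lay in D5Ertd579e and Gm32584 (1055), Cpeb4 (683), Nxpe4 (249), Inpp4b, a phosphoinositide phosphatase gene (213), Prkag2, an AMP-activated kinase subunit gene (190), Pdgfrl (177), Chchd6 (133), Ptprn2 (130), the lncRNA gene 4930447K03Rik (108) and Mgst1, a glutathione transferase gene (99). Many of these genes are long: Inpp4b spans 792.0 kb with a peak of 258 bp, and Ptprn2 792.5 kb with a peak of 394 bp. Inpp4b held a second member without a HEPA1-6 peak (score 71, 348 bp). At the same D5Ertd579e locus, a second member of 957 bp with a score of 322 did overlap one, ranked 0.595%. No member over 2 kb was without a HEPA1-6 peak.

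Promoters at the members were CpG-rich, and so were those at lower-scoring peaks. The RefSeq table gave 300 bases around the start, 250 before and 50 after, for 16457 autosomal protein-coding genes, and a member lay within 1 kb of the start of 327. In these the median GC content was 63.3% (62.3 to 64.7) and the median ratio of observed to expected CpG was 0.858 (0.827 to 0.890). At the 2147 starts with a lower-scoring peak only, the values were 63.0% (62.3 to 63.7) and 0.827 (0.813 to 0.837), and over all 16457 promoters 56.7% and 0.597. A CpG ratio over 0.6 was found in 87.5% (83.4 to 90.6), 81.1% (79.4 to 82.7) and 49.8%, and in 44.1% of the 13983 promoters with no stranded genic liver peak at the start. The interval of the GC content spanned that of lower-scoring peaks, while for the CpG ratio over 0.6 the intervals did not overlap.

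The motifs differed in whether promoters at peaks stood apart from all promoters. GGGCGG, on either strand, was in 73.1% of promoters at members (68.0 to 77.6), 70.8% at lower-scoring peaks (68.9 to 72.7) and 47.3% of all. TATAAA was in 7.65% (5.23 to 11.04), 6.15% (5.21 to 7.24) and 13.5%, and H1f4 and H1f3 were thus among the 25 promoters at members that held it. CCAAT was in 43.4% (38.2 to 48.8), 42.6% (40.5 to 44.7) and 39.1%, so the interval at members included the share of all promoters. CTTTCC, letters of the pyrimidine tract at the start of ribosomal protein mRNAs, was in 26.3% (21.8 to 31.3), 27.2% and 26% of them, which were close to each other. At least 4 runs of GGGG within 30 bases of each other were found in 7.03% (4.73 to 10.3), 6.29% and 4.66%. GC skew, the excess of G over C on the strand of the gene as a part of both, had a median of -0.020 (-0.034 to 0.0056) at members, 0.0047 at lower-scoring peaks and 0.0067 over all. In the 50 bases after the start alone the medians were above 0, with 0.091 (0.059 to 0.128) at members, 0.103 (0.091 to 0.118) at lower-scoring peaks and 0.067 (0.063 to 0.071) over all. For each of these motifs the intervals at members and at lower-scoring peaks overlapped.

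**Figure D5:**
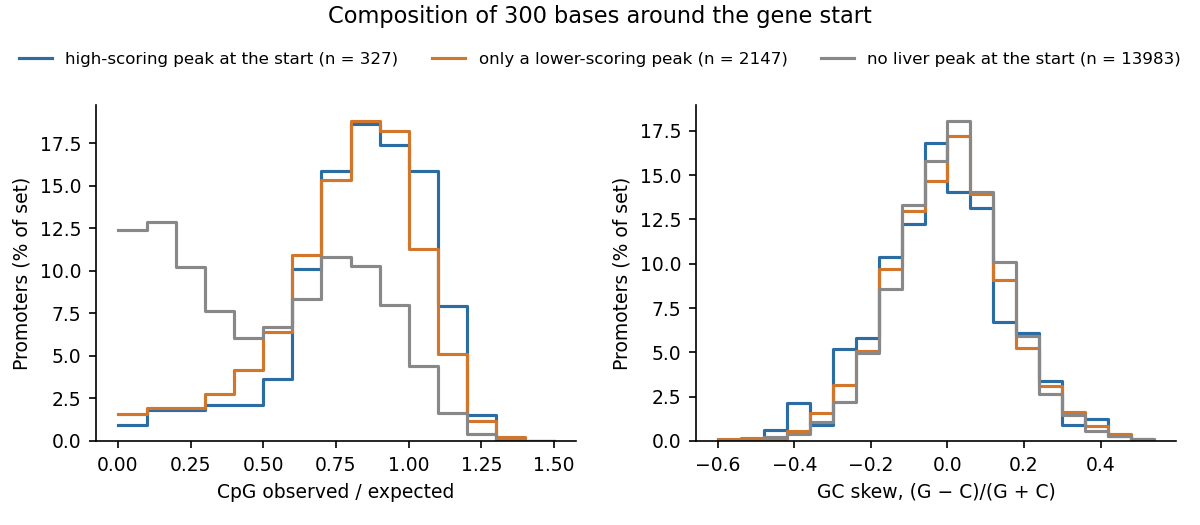
Distribution (y, percent of the set) of the CpG observed over expected ratio (left, x) and of GC skew (right, x) in 300 bases around the start of protein-coding genes, for 327 starts with a member, 2147 with a lower-scoring peak only and 13983 with no stranded genic liver peak. The first 2 sets nearly coincide in CpG ratio, with medians of 0.858 and 0.827, and both lie right of the third.

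Members were spread over all 19 autosomes, from 5 on chromosome 14 to 74 on chromosome 11. As a share of the genic liver peaks of the chromosome they ranged from 3.39% on chromosome 15 (2.60 to 4.41, 53 members) to 9.03% on chromosome 17 (6.70 to 12.1, 40 members). Chromosome 15 holds the most lower-scoring genic peaks, 1509. With a gap of at most 20 kb, 66 members formed 29 clusters, of which 3 had 3 or more. The largest, of 7 members over 91.5 kb at chr17:14960415-15051892, lay over Phf10, 9030025P20Rik, Gm3417, Gm3255, Gm3435, Gm3448, Gm52298, Tcte3 and Ermard, with scores from 82 to 169. All 7 overlapped a HEPA1-6 peak, with ranks from 0.413% to 3.94%. Several of these genes are numbered gene models with similar neighbours, so reads may not be told apart between them. The second cluster, of 4 members, lay over Arid2, Scaf11 and Gm41408 at chr15:96402812-96462942, and the third, of 3 members, over Cox20 and Hnrnpu at chr1:178318020-178339063.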

How the data were processed

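Immunoprecipitates and inputs of 2 sources were compared by the authors as 1 deposited peak list per source, 6 columns without a header. Column 5 is the deposited score, given by the authors as an integer from 10 upward, with its scale not stated. Per the submitters' processing notes, CASAVA 1.8.2, cutadapt, Bowtie2, bedtools, SAMtools and MACS2 were used, with build mm10; their roles, thresholds and the treatment of repeated reads are not given in the sources used here. The merged libraries are likewise not given.

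Peaks were laid over the 49997 genes of a RefSeq table of GRCm38.p6 with Python 3.11.15, numpy 2.4.6, pandas 2.3.3 and scipy 1.17.1, and plotted with matplotlib 3.10.9. Overlap was 1 bp or more. Gene strands came from the RefSeq promoter table (27025 genes), which replaced the authors' strand. Exons were not used here. Of several HEPA1-6 peaks over a member, the highest-scoring was ranked, with ties at their mean rank. Scripts were tested on simulated data.

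The members and the 17 gene lists were chosen with earlier results of these data known. Named were the 20 highest-scoring members, the 5 widest and 5 narrowest, the 10 highest without a HEPA1-6 peak, the 5 with the highest and the 5 with the lowest HEPA1-6 rank, up to 6 by score in each list, 3 on each side of the threshold and genes with 3 members; a few named by this rule are not reported here, and others are marked as chosen after their values were seen or illustrate a count. Alternatives covered the score threshold, overlap, boundary window, width, chromosome 15 and the HEPA1-6 match.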

Additional observations from a re-analysis of the deposited data

How the results depend on the processing

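The 9 results were recomputed under 59 alternatives, of which 31 moved a share or median by less than its interval or a count by less than 1.5 times, and 28 moved it by more. With a score threshold of 40 there were 1689 members holding 1640 protein-coding genes, 51.5% of them were at a 5′ boundary, and the median HEPA1-6 rank was 3.72%. With a threshold of 100 there were 183 members holding 204 such genes, with a median width of 2599 bp, 65.8% at a 5′ and 36.2% at a 3′ boundary, a median HEPA1-6 rank of 0.472% and 85.4% on the strand of their gene. With the peak midpoint required inside the gene, 54.3% were at a 5′ boundary and 81.7% on the strand of the gene. The 5′ share was 64.1% and the 3′ share 38.0% with a window of 2 kb, 37.8% and 13.3% with the midpoint against the window, and 46.7% and 18.5% over members with 1 gene only. Chosen after seeing the data, members of 500 bp or more had a median width of 2605 bp, 67.5% at a 5′ and 35.7% at a 3′ boundary and 98.1% over a HEPA1-6 peak, and counting any annotated start of a gene 64.7% were at a 5′ boundary. An overlap of 50% of both peaks gave 61.7% over a HEPA1-6 peak with a median rank of 1.02%, an overlap on the same strand gave 78.1%, and ranking among stranded autosomal genic HEPA1-6 peaks gave 1.29%. Higher thresholds and stricter overlaps select other peaks by construction; the cause of the remaining shifts was not tested. Leaving out chromosome 15 moved none of the 9 results beyond these limits. No paired analysis was possible because each source has 1 merged peak list and no value per library, and for the same reason no library could be left out. The depth of the libraries is unknown, so how far it limits the lists was not tested.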
